A study of Mus musculus with 13 samples.

Results

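The proximal tubule is the stretch of the nephron that follows the glomerulus and takes back most of the filtered solutes. The genes described here are 47 transporters, enzymes and regulators of that segment, chosen by gene symbol from the 46958 genes of a count table made from purified glomeruli. All 47 were found in the table, and all 47 passed the filter on low counts, among 16738 genes tested. Beads and a magnet had been used to isolate the glomeruli. The mice were 6 months old and of a background mixed from C57/BL6, 129/SV and BALB/c. Wild type (WT) gave 5 libraries, the genotype named kFRA (LCDD) gave 4, and DH-LMP2A mice gave 4. LCDD stands for light chain deposition disease, in which immunoglobulin light chains deposit in the kidney. The alleles behind the names kFRA and DH-LMP2A, and whether the LCDD mice also carry DH-LMP2A, are not given in the sources used here. Each library was a pool of 3 mice, except WT replicates 3, 4 and 5, which were 1 mouse each. The labels give no sex.

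Each sample title also carries a code, NS161202, NS170411, NS171018 or NS180319, whose meaning the labels do not state. LCDD and DH-LMP2A had 1 library under each code, in that order for replicates 1 to 4. WT replicate 1 stood under NS161202, WT replicate 2 under NS171018 and WT replicates 3 to 5 under NS180319, and no WT library stood under NS170411.

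Cells of the proximal tubule carry a brush border facing the filtrate, where sodium-coupled carriers take up phosphate, glucose, amino acids and organic acids, and where peptidases cut filtered peptides. Carriers on the opposite side pass the solutes to the blood or bring organic anions and cations in for secretion. The same cells make glucose, conjugate acids, activate vitamin D, and express much of this programme under the nuclear receptor HNF4A. These genes are known as tubule genes, and glomerular preparations can hold tubule fragments. In bulk libraries, fewer cells of a type and less RNA per cell cannot be told apart.

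The upstream sequences of 3 members are shown because they stand for the patterns described below: Slc34a1 and Slc3a1 followed the shared pattern over libraries, and Xpnpep2 did not. They are the 250 bases before the start in RefSeq on GRCm38.p6, on the coding strand, at chr13:55399398-55399647 (plus strand), chr17:85028097-85028346 (plus) and chrX:48108475-48108724 (plus), each ending at the base before the deposited gene's first base. Capitals mark matches to the motifs searched on both strands: the HNF4 site CAAAGTCCA, AGAACA, 1 arm of the androgen receptor site and the TATA box TATAAA.
Slc34a1: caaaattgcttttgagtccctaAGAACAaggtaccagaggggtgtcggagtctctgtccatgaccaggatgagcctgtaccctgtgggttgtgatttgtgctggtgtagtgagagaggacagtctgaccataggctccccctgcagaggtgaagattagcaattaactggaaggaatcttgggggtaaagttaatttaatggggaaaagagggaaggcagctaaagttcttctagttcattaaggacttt
Slc3a1: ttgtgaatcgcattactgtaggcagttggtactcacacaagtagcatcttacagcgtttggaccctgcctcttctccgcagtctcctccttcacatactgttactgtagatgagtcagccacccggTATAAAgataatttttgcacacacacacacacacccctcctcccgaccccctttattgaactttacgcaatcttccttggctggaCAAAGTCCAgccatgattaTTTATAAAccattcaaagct
Xpnpep2: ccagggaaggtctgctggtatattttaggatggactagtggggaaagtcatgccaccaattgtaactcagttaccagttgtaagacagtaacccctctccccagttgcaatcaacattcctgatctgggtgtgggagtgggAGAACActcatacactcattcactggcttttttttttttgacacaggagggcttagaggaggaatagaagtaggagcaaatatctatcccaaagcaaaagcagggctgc

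Upstream sequences were matched for 40 of the 47 members, and 27025 genes in all. The HNF4 site was in 1 of the 40, Slc3a1, against 0.451% of all genes. The androgen receptor arm was in 7 of the 40 (17.5%), Slc34a1 and Xpnpep2 among them, against 18.2% of all genes, and the TATA box in 7 (17.5%) against 14.3%. In Slc3a1 2 of the TATA box matches, on opposite strands, overlap. These are counts of letters in a window and not binding sites.

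Libraries held 16687509 to 30587890 counts, so 3 counts, the smallest level taken as detectable, came to 0.0971 to 0.185 CPM, read counts scaled to a common library total with TMM factors. The libraries carry no molecular identifiers, and that floor covers counting error only. The 47 genes together took 0.0830% (WT replicate 4) to 0.718% (DH-LMP2A replicate 1) of a library's counts. The label of the tissue was checked on a podocyte gene: Nphs1 (nephrin) lay at 429 to 3759.8 CPM over the 13 libraries. Per kilobase of exon, the mean level over all libraries was highest for Kap, at 462 CPM per kb, then Cyp4b1 at 258, Slc34a1 at 94.5 and Miox at 70.8, and lowest for Mep1b at 0.779 and Cyp27b1 at 0.277. Values below are CPM scaled with TMM factors, and fold changes are on the log2 scale from edgeR's quasi-likelihood fit, with Benjamini-Hochberg adjustment over the 16738 genes. A gene is called where its adjusted p is under 0.05.

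The members differed between libraries far more than most genes did, and they did so together. The ratio of the highest to the lowest library had a median of 48.1 over the 47 genes and was at least 10 in 43 of them. The range over the 13 libraries had a median of 5.53 on the log2 scale, against 1.16 over all genes tested. DH-LMP2A replicate 1 was the highest library for 19 members, WT replicate 1 for 15 and DH-LMP2A replicate 2 for 10. WT replicate 4, a single mouse, was the lowest for 35.

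**Figure D1:**
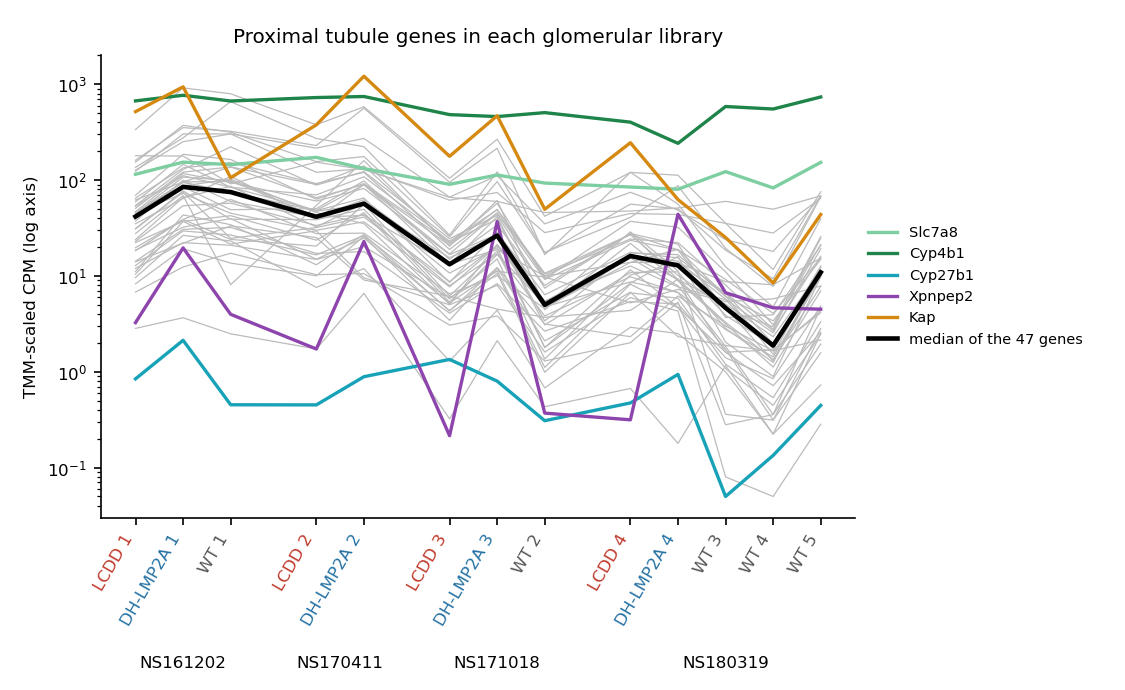
TMM-scaled CPM (log axis) of the 47 genes in the 13 libraries, ordered by title code, with 1 line per gene joining the libraries, 5 genes in colour and the median of the 47 in black; values under 0.05 CPM are drawn at 0.05. Most lines fall and rise with the median, which is lowest in WT replicate 4, whereas Cyp4b1 and Slc7a8 vary over a smaller range and Xpnpep2 takes its own course.

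The first question was how the members followed the title code. With the genotype in the model, 37 of the 47 members were called between codes, against 18.6% of all genes tested. The called genes included both phosphate carriers, all 4 carriers of glucose and lactate, 5 of 6 of organic ions, both of sulfate and dicarboxylates, all 3 of bicarbonate, protons and water, 6 of 7 of amino acids, all 3 genes of gluconeogenesis, all 3 of the amino acid, creatine and inositol group and 4 of 6 brush border peptidases. In the group of P450 and vitamin D enzymes 1 of 4 was called, Cyp24a1, and in acyl conjugation 0 of 2. The 10 members that were not called were Slc22a6, Keg1, Mep1b, Acsm2, Cyp2e1, Kap, Cyp4b1, Slc7a8, Cyp27b1 and Xpnpep2, with adjusted p from 0.0519 to 0.615.

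That count rested on the WT libraries. Without WT replicate 1, 5 of 47 members were called, against 14.9% of all genes tested. Without the 3 single-mouse WT libraries, 4 were called, against 0.959%, and with the LCDD and DH-LMP2A libraries alone 6, against 0.387%. DESeq2 called 44 of 47, against 19.4% of the 28088 genes with any count, a wider set than the 16738.

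The direction was shared by LCDD and DH-LMP2A. In LCDD, both libraries of the codes NS161202 and NS170411 lay above both libraries of NS171018 and NS180319 for 45 of 47 members, against 29.6% of all genes tested, and the exceptions were Cyp2e1 and Cyp27b1. In DH-LMP2A the same held for 44 of 47, against 20.1%, except for Slc5a1, Cyp27b1 and Xpnpep2, and Xpnpep2 had the reverse order, as did 22.3% of all genes. This division of the codes was chosen after the values were seen. The order within each pair of codes differed between the genotypes: the highest LCDD library stood under NS170411 for 35 members and the lowest under NS171018 for 33, whereas the highest DH-LMP2A library stood under NS161202 for 36 and the lowest under NS180319 for 43.

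The libraries of WT were spread more widely than those of the other genotypes. WT replicate 1 was above the other 4 WT libraries for 44 of 47 members, against 22.4% of all genes tested, with a median ratio of 12 to their mean; the exceptions were Slc7a8, Cyp4b1 and Xpnpep2. The 3 single mice under 1 code differed as well: replicate 5 was the highest of them for 45 of 47 members, against 38.2% of all genes, all but Mep1b and Xpnpep2. The median ratio of replicate 5 to replicate 4 was 5.63.

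Markers of other cells moved over the same codes. All 8 podocyte genes listed were called between codes, and their summed level was 5836 to 12894 CPM under NS161202 and 11144 to 16546 under NS170411, against 24243 to 28039.99 under NS171018 and 20044 to 26886 under NS180319. Of 9 genes of the loop of Henle and distal tubule 4 were called, with sums of 987 to 2014, 868 to 1370.4, 357 to 520 and 214 to 825 CPM under the codes in ascending order. Of 8 collecting duct genes 0 were called, with sums of 52.3 to 122 CPM under NS161202 and 4.16 to 62.7 under NS180319. Of 5 tubular injury genes 4 were tested and 2 were called, Havcr1 and Spp1, with sums of 298 to 402 CPM under NS161202 and 44.8 to 163 under NS180319. None of the 7 endothelial and 8 mesangial genes was called between codes by the edgeR test, which does not show that they were level. The endothelial gene Kdr had 57046, 73285, 21833 and 19502 raw counts in LCDD, in the order of the codes. In DH-LMP2A it had 58891, 33176, 14092 and 12116, and in WT replicates 1 to 5 81627, 27777, 51581, 39282 and 69730. Plvap did not keep that order of codes in DH-LMP2A, with 4267, 2140, 2317 and 1766. These counts are not scaled for library size. The part of tubule fragments, and of the code itself, in the members' levels was not tested.

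**Figure D2:**
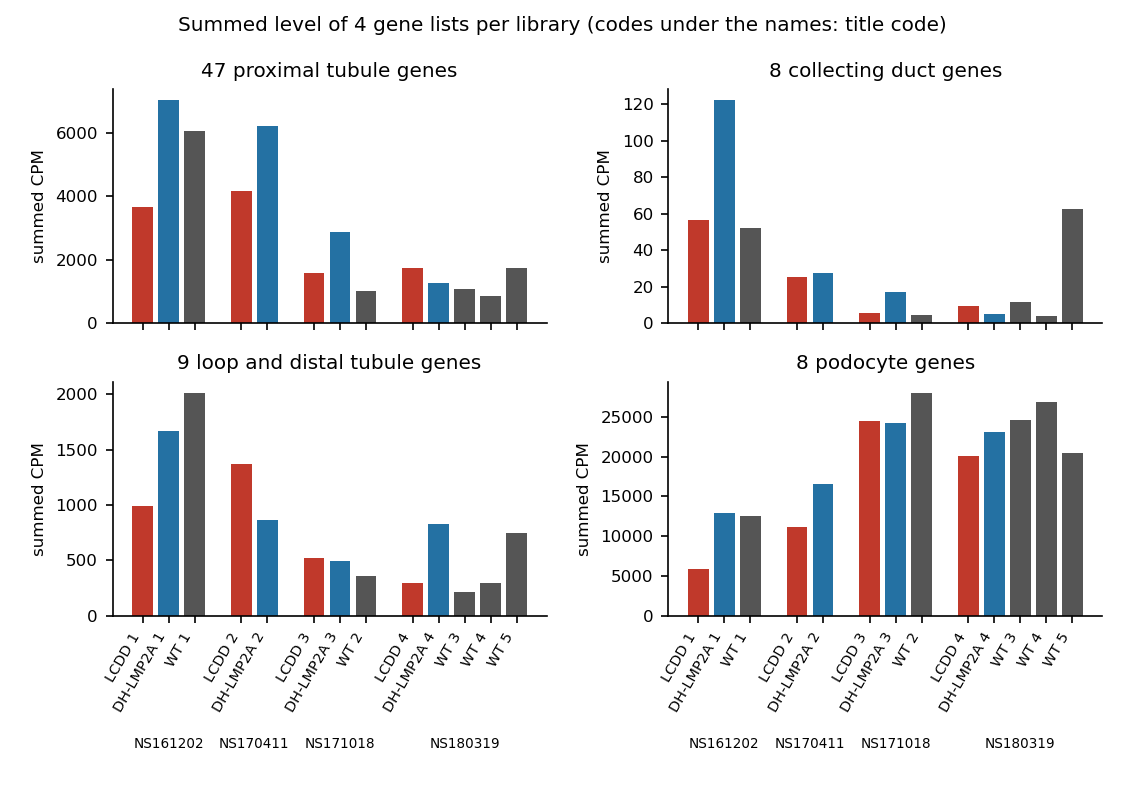
Summed TMM-scaled CPM of 4 gene lists in each of the 13 libraries, as bars from 0 coloured by genotype and grouped by title code. The members' sum is at least 3649 CPM in all libraries of NS161202 and NS170411 and at most 2871 in the others, and the podocyte sum is low where the members' sum is high.

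A list of 54 other proximal tubule genes, none of them members, was read in the same way. Of the 53 tested, 37 were called between codes. Both libraries of NS161202 and NS170411 lay above both of the other codes for 47 of 53 in LCDD and 44 of 53 in DH-LMP2A. Lrp2, the endocytic receptor megalin, lay at 470 CPM in WT replicate 1 and 11.1 CPM in WT replicate 4. The exceptions in both genotypes included Enpep, Dpp4 and Mme, peptidases that podocytes also carry: Enpep lay at 348 to 3083 CPM, with its lowest value in LCDD replicate 1. Lists by segment overlap the members, so they repeat calls given above. Of 6 genes typical of the early proximal tubule, all of them members, 5 were called between codes. Of 7 of the late segment, some of them members, 4 were called. The share over all genes tested was 18.6%.

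Slc34a1 encodes the main sodium-phosphate carrier of the brush border. Its 4 LCDD libraries, in the order of the codes, had 338, 379, 105 and 121 CPM, and the DH-LMP2A libraries 918, 583, 268 and 113 CPM. WT replicates 1 to 5 had 797, 42, 35.5, 11.7 and 75.6 CPM. The genotypes overlapped widely, and in each the high ones stood under NS161202 and NS170411 (between codes, edgeR adjusted p = 0.0166). Slc34a3, a further phosphate carrier of the brush border, ran from 0.224 to 26.6 CPM with the same order at its extremes, WT replicate 4 and DH-LMP2A replicate 1.

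Slc5a2 encodes SGLT2, which takes up most filtered glucose in the early proximal tubule. It had 69.7, 63.2, 22.4 and 13.8 CPM in LCDD and 186, 92.1, 39.2 and 19.0 CPM in DH-LMP2A. In WT it had 164, 4.70, 6.21, 1.52 and 12.4 CPM, so that WT replicate 1 was at the level of DH-LMP2A replicate 1 and the other WT libraries were below all LCDD and DH-LMP2A libraries. Its code means over all libraries spanned 4.00 on the log2 scale, behind only those of Cyp2e1 and Cyp24a1. Those means are not centred on genotype, and WT is unevenly spread over the codes. Over the LCDD and DH-LMP2A libraries alone the ranges were 2.81 for Slc5a2, 2.37 for Cyp2e1 and 1.94 for Cyp24a1. Mep1b had the widest there, 2.97. Slc5a2 was called between codes (edgeR adjusted p = 0.0116). The exit carrier Slc2a2 (GLUT2) and the lactate carrier Slc5a12 were highest in WT replicate 1, at 39.8 and 86.3 CPM, and lowest in WT replicate 4, at 0.537 and 0.895 CPM. Slc5a1 (SGLT1), of the late segment, varied less, from 1.6 to 33.3 CPM.

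Slc22a12, the urate exchanger URAT1, had 53.5, 48.4, 20.8 and 27.0 CPM in LCDD and 111, 89.4, 49.5 and 10.2 CPM in DH-LMP2A. In WT it had 84.4, 9.95, 4.64, 1.30 and 11 CPM. The groups overlapped, and 1 WT library was among the high ones. The organic anion transporters Slc22a6 (OAT1) and Slc22a8 (OAT3), the cation transporter Slc22a2 (OCT2) and the phosphate and urate carriers Slc17a1 and Slc17a3 had ratios of highest to lowest library from 15.7 (Slc22a2) to 146 (Slc17a1).

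Slc13a3, which takes up dicarboxylates, had 44.1, 48.0, 8.56 and 17.7 CPM in LCDD, 94.7, 65.2, 28.5 and 15.4 in DH-LMP2A and 75.1, 6.36, 6.61, 1.97 and 10.3 in WT. The sulfate carrier Slc13a1, the bicarbonate cotransporter Slc4a4 and the sodium-proton exchanger Slc9a3 followed, each highest in WT replicate 1. The water channel Aqp1 was different. It had 180, 154, 66.1 and 47.6 CPM in LCDD, 178, 129, 60 and 51.3 in DH-LMP2A and 91.6, 45.9, 60.1, 49.8 and 68.5 in WT, a range of 3.92-fold. It was still called between codes (adjusted p = 0.00997), with the libraries of NS161202 and NS170411 above the others within each genotype.

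Slc7a7, the basolateral partner of lysine and arginine exit, had 1 of the 3 smallest p-values between codes (adjusted p = 0.00762). It had 37.4, 41.0, 13.3 and 13.9 CPM in LCDD, 99.8, 42.9, 18.9 and 13.7 in DH-LMP2A and 60, 9.95, 8.73, 8.10 and 15.3 in WT. Slc3a1 and Slc7a9, the 2 chains of the cystine carrier, each stayed close to the members' median course. Departures of each gene from that course had an SD of 0.221 and 0.203 on the log2 scale, among the 5 smallest. Slc7a8 kept the order of codes seen in LCDD and DH-LMP2A, over a smaller range. This neutral amino acid exchanger had 115, 173, 90.5 and 84.8 CPM in LCDD, 154, 132, 113 and 80.4 in DH-LMP2A and 145, 93.3, 123, 83.0 and 153 in WT. Its range of 2.15-fold was the smallest of the 47, the single WT mice lay among the other libraries, and it was not called between codes (adjusted p = 0.129). Slc6a18, Slc6a19 and Slc6a20b, carriers of neutral amino acids and proline, had ratios of 41.6 to 85.9; Slc6a20b has a close relative in the genome, and how shared reads were counted is not stated.

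Pck1, which commits the cell to gluconeogenesis, had 136, 272, 26.7 and 40.9 CPM in LCDD, 277, 224, 122 and 87.6 in DH-LMP2A and 659, 17.6, 19.5, 7.79 and 67.4 in WT. WT replicate 1 exceeded every other library here. Fbp1 and G6pc, later steps of the pathway, were also highest in WT replicate 1, at 137 and 96.9 CPM. Miox, which opens the inositol ring, had 154, 156, 25.7 and 56.2 CPM in LCDD, 373, 176, 96.6 and 50.2 in DH-LMP2A and 316, 17.3, 18.6, 9.35 and 68.4 in WT. Ass1 and Gatm, enzymes of arginine and creatine synthesis, had smaller ratios of 16.8 and 10.8.

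Acsm2, an acyl-CoA synthetase, had 161, 230, 95.0 and 121 CPM in LCDD, 354, 564, 215 and 56.2 in DH-LMP2A and 324, 16.7, 12.5, 4.74 and 39.6 in WT. Neither Acsm2 (adjusted p = 0.0713) nor Keg1, a glycine acyltransferase (0.0533), was called between codes. Both belong to families of close copies, so their counts are uncertain.

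Cyp4b1, a fatty acid and xenobiotic hydroxylase, varied 3.17-fold and kept the order of codes in LCDD and DH-LMP2A. It had 672, 728, 483 and 403 CPM in LCDD, 769, 746, 461 and 242 in DH-LMP2A and 670, 507, 587, 553 and 738 in WT. Its share of the members' summed CPM ran from 10.9% in DH-LMP2A replicate 1 to 65.5% in WT replicate 4. Cyp27b1, which makes active vitamin D, and Cyp24a1, which breaks it down, went different ways. Cyp27b1 was low everywhere, at 0.452 to 1.35 CPM in LCDD, 0.799 to 2.13 in DH-LMP2A and 0.0400 to 0.453 in WT, and was not called between codes (adjusted p = 0.298). Cyp24a1 had 10.4, 29.6, 5.01 and 5.96 CPM in LCDD, 37.1, 9.56, 7.99 and 4.30 in DH-LMP2A and 21.5, 1.61, 0.0801, 0 and 0.284 in WT. Its highest library was at least 276-fold above the floor of 3 counts in WT replicate 4 (between codes, adjusted p = 0.0362). The single WT mice were thus near or under the floor for it, and its exons overlap those of Pfdn4 on the opposite strand.

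Ggt1, the gamma-glutamyltransferase of the brush border, had 59.4, 70.2, 23.1 and 27.1 CPM in LCDD, 146, 109, 49.0 and 18.8 in DH-LMP2A and 84.2, 10.7, 9.21, 4.07 and 15.4 in WT. Dpep1, a dipeptidase that ends glutathione breakdown, had 11.1, 13.1, 4.31 and 2.33 CPM in LCDD, 43.4, 27.0, 12.3 and 6.18 in DH-LMP2A and 34.3, 3.15, 3.00, 1.66 and 4.34 in WT. Under every code the LCDD library was below the DH-LMP2A library. The same was true of the alanyl aminopeptidase Anpep, which had 12, 14.9, 5.92 and 5.25 CPM in LCDD, 22.3, 20.3, 11.2 and 7.25 in DH-LMP2A and 20.9, 9.76, 5.41, 5.77 and 7.87 in WT. That order was not limited to peptidases, as Slc5a2, Slc5a12 and Slc9a3 kept it as well. Anpep and Dpep1 had, with Slc7a7, the smallest p between codes (adjusted p = 0.00658 and 0.00825). The meprin chains Mep1a and Mep1b had ratios of 42.2 and 36.8.

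Xpnpep2, on chromosome X at 48108725 to 48136981, encodes membrane-bound aminopeptidase P, which removes residues next to proline from peptides such as bradykinin. It had 3.26, 1.73, 0.215 and 0.316 CPM in LCDD, 19.6, 22.9, 36.9 and 44.1 in DH-LMP2A and 3.98, 0.371, 6.69, 4.65 and 4.50 in WT. All LCDD libraries were below all DH-LMP2A libraries, and so were all WT libraries. Its departures from the members' median course were the largest of the 47, with an SD of 2.53 on the log2 scale.

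Hnf4a, the nuclear receptor, had 46.9, 60.5, 16.7 and 16.5 CPM in LCDD, 117, 81.9, 27.3 and 14.3 in DH-LMP2A and 94.6, 5.13, 5.73, 2.55 and 19.3 in WT, close to the median course (SD of departures 0.239). The scaffold Pdzk1 had the smallest departures of all, 0.184. Its exons overlap those of 3 genes on the opposite strand; exons of Slc5a2, Slc7a7, Slc3a1, Slc22a12 and Keg1 overlap such genes too, and the strand setting of the counting is not stated. Nox4 and Ttc36 had ratios of 80.6 and 52.2.

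Kap encodes the kidney androgen-regulated protein of the tubule. It had 519, 378, 177 and 246 CPM in LCDD, 942, 1216, 470 and 62.7 in DH-LMP2A and 106, 49.7, 25.2, 8.46 and 43.8 in WT. Its lowest LCDD library was above every WT library, and in DH-LMP2A 1 library was below WT replicate 1. The ratio of Kap to Slc34a1 CPM in the same library was 1.54, 0.998, 1.69 and 2.04 in LCDD, 1.03, 2.09, 1.76 and 0.557 in DH-LMP2A and 0.133, 1.18, 0.710, 0.724 and 0.580 in WT. These groups overlapped, and under NS180319 the DH-LMP2A library was below all 3 WT libraries.

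**Figure D3:**
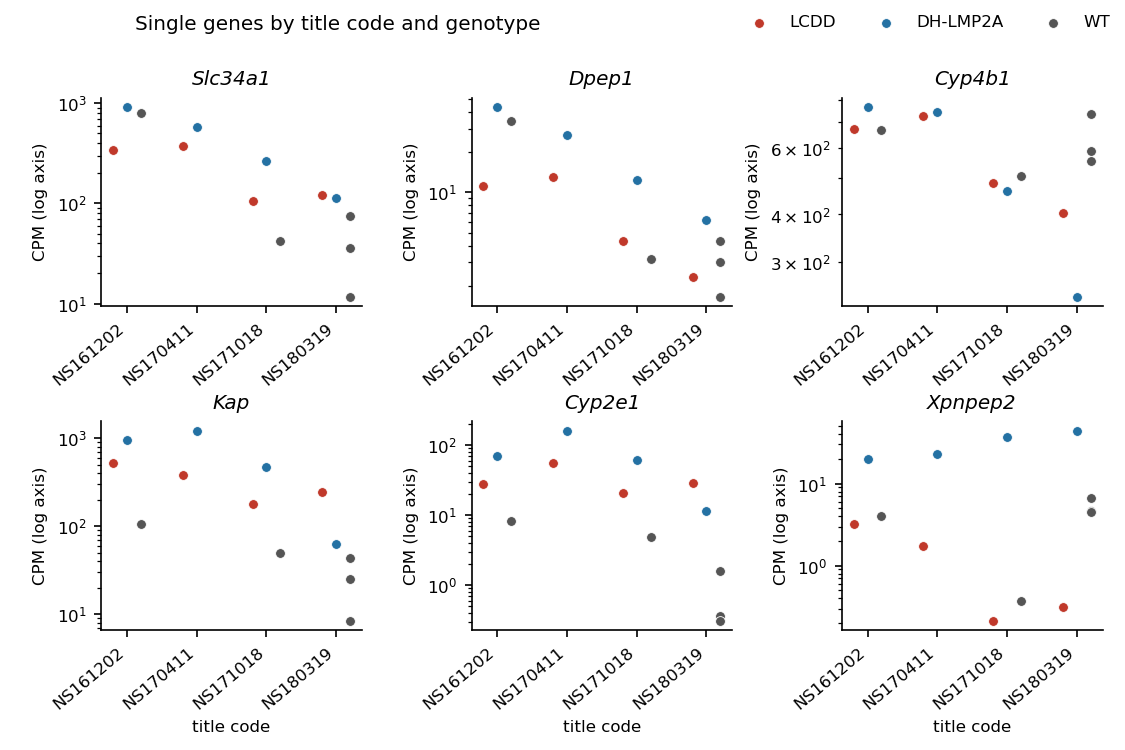
TMM-scaled CPM (log axes) of 6 members in the 13 libraries, by title code on the x axis and coloured by genotype, 1 point per library. Slc34a1 and Dpep1 are higher under NS161202 and NS170411 than under the other codes in LCDD and DH-LMP2A, Cyp4b1 stays between 242 and 769 CPM, Kap and Cyp2e1 are low in WT, and Xpnpep2 is 19.6 CPM or more in DH-LMP2A and at most 6.69 elsewhere.

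LCDD was compared with DH-LMP2A, the comparison in which every code holds both genotypes. Xpnpep2 was lower in LCDD, with a mean of 1.38 ± 1.43 CPM (SD, n = 4) against 30.9 ± 11.6 (SD, n = 4), and the log2 difference was -4.45 with an SE of 0.83 (edgeR adjusted p = 0.0164). Its libraries did not overlap between the genotypes, which held in this direction for 2.89% of all genes tested. It was the only member called, 1 of 47, against 2.0% of all genes tested (0.693% lower). The call rested on 3 libraries: without LCDD replicate 2, DH-LMP2A replicate 3 or DH-LMP2A replicate 4 the edgeR adjusted p was 0.0509, 0.0507 and 0.0518, and over all 13 leave-outs it ran from 0.00641 to 0.0518. The difference within the codes was -2.56, -3.66, -6.95 and -6.79 in ascending order.

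With the title code as a block, which pairs the libraries of these genotypes, 3 members were lower in LCDD, against 2.86% of all genes tested. They were all brush border peptidases: Xpnpep2 (-4.69, edgeR adjusted p = 0.0112), Anpep (-0.67, 0.0336) and Dpep1 (-1.47, 0.0346). Without the block Anpep (-0.68 ± 0.49 SE) and Dpep1 (-1.53 ± 0.94 SE) were not called. The other peptidases, Ggt1, Mep1a and Mep1b, were not called in either fit.

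The rest of the members leaned the same way without being called. The median log2 fold change of the 47 was -0.75, against -0.01 over all genes tested, and 44 of 47 were below 0. Within the codes the median was -1.10, -0.46, -1.18 and 0.21, with 46, 41, 43 and 12 of 47 below 0, so the direction was not kept under NS180319. Medians per role ran from -1.04 for the phosphate carriers to -0.42 for the P450 and vitamin D enzymes. Of the 54 other proximal tubule genes, 0 of 53 tested were called. Summed podocyte genes were 5836 to 24538 CPM in LCDD and 12894 to 24243 in DH-LMP2A, with 0 of 8 called. With the block 1 of the 8, Nphs1, was lower in LCDD, and the part of podocyte content in the peptidase calls was not tested.

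**Figure D4:**
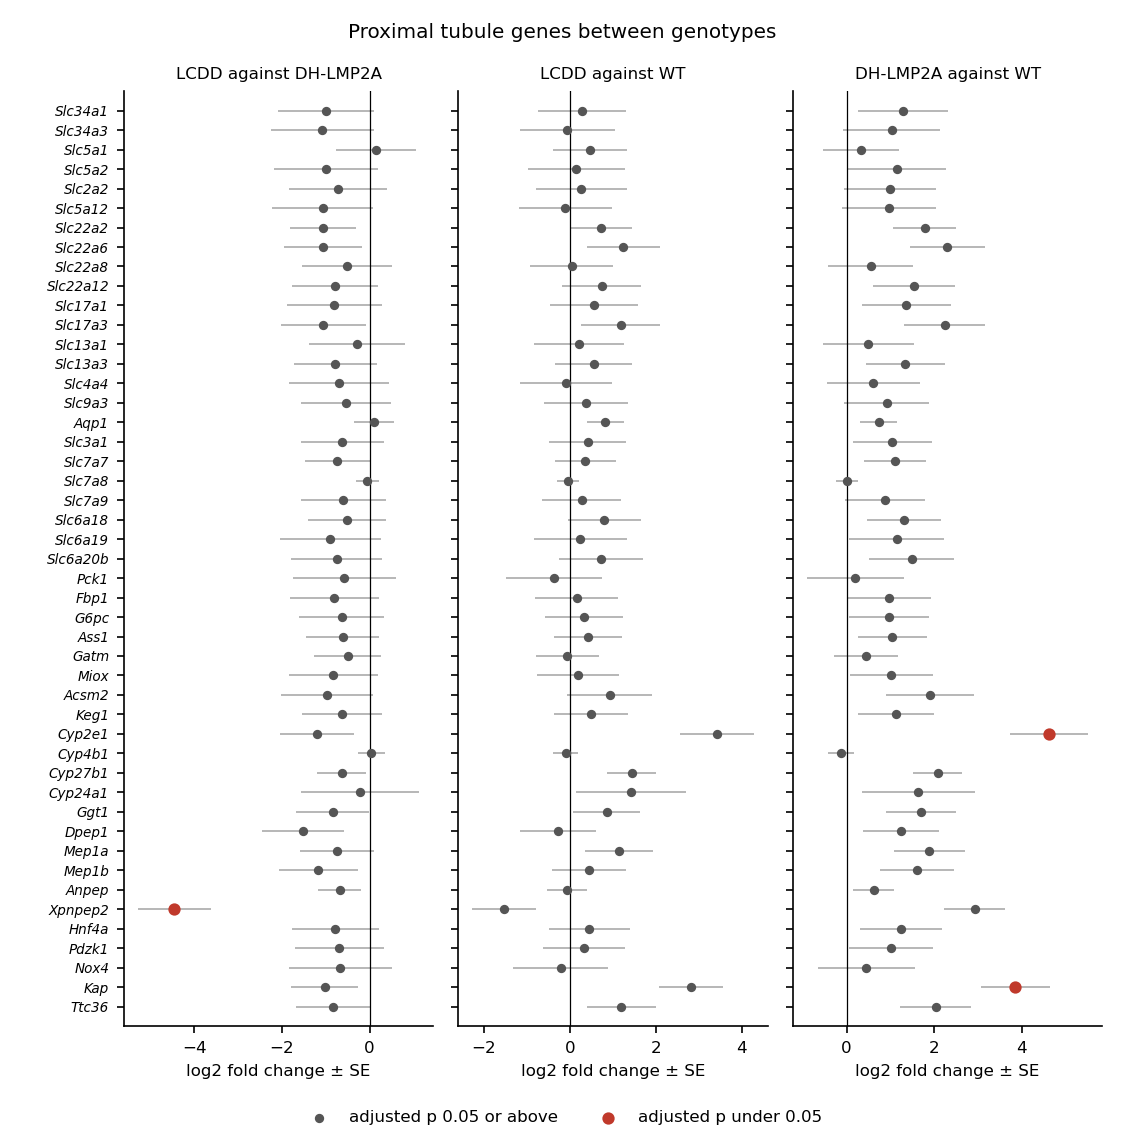
Log2 fold change ± SE of the 47 members in 3 genotype comparisons from the edgeR fit without the block, 1 row per gene in the order of the roles above, with called genes in red. Xpnpep2 is called lower in LCDD than in DH-LMP2A, Cyp2e1 and Kap are called higher in DH-LMP2A than in WT, and 0 members are called between LCDD and WT.

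LCDD and DH-LMP2A were each compared with WT, and both comparisons use the same 5 WT libraries. In DH-LMP2A 2 members were called, both higher, against 0.627% of all genes tested (0.275% higher). The first, Cyp2e1, is a P450 enzyme of small molecules. It had 68.8, 160, 61.4 and 11.3 CPM in DH-LMP2A, 27.7, 54.5, 20.5 and 28.9 in LCDD and 8.12, 4.82, 0.360, 0.313 and 1.58 in WT. All WT libraries were below all others. DH-LMP2A had 75.4 ± 61.9 CPM (SD, n = 4) and WT 3.04 ± 3.38 (SD, n = 5), a log2 difference of 4.62 with an SE of 0.90 (edgeR adjusted p = 0.0397). The second, Kap, had 673 ± 510 CPM (SD, n = 4) against 46.6 ± 36.9 (SD, n = 5), or a log2 difference of 3.85 with an SE of 0.78 (edgeR adjusted p = 0.0479).

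Both calls were near the threshold. Cyp2e1 was called in 4 and Kap in 3 of the 13 fits that left out 1 library. Cyp2e1 kept its call only without LCDD replicate 1, DH-LMP2A replicate 1, DH-LMP2A replicate 4 or WT replicate 1, and Kap only without LCDD replicate 1, DH-LMP2A replicate 4 or WT replicate 1; the edgeR adjusted p ran from 0.0159 to 0.149 and from 0.0145 to 0.181. Without the single-mouse WT libraries the edgeR adjusted p was 0.162 and 0.293. In DESeq2 both stayed called.

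Sex-linked transcripts differed between the same groups. The 4 Y-linked genes summed to 18.0 to 220 CPM in LCDD, 68.3 to 223 in DH-LMP2A and 0 to 27.0 in WT, where replicates 1 and 4 were at 0 and only replicate 2 was above 0.0811. A further fit took the log2 of the summed level of the Y-linked genes as a covariate. In DH-LMP2A against WT its edgeR adjusted p was 0.412 for Cyp2e1 and 0.436 for Kap, while the log2 differences were 4.28 and 3.68. Cyp2e1 and Kap are 2 of 12 genes listed as male-biased in mouse kidney. Of that list 8 were called higher in DH-LMP2A and 6 in LCDD, against WT. Only 1 of the 12 was below 0 in each, the member Cyp4b1 (-0.14 in DH-LMP2A and -0.10 in LCDD). Over all 16738 genes tested 46 and 217 were called higher. The 6 that are no members were the same in both: Slc7a13, Slco1a1, Cyp2j13, Cyp4a12a, Ugt2b38 and Acsm3. Of 3 genes listed as female-biased 2 were tested and 0 were called. Their log2 fold changes against WT were -0.22 and 0.10 in DH-LMP2A and -0.96 and -0.77 in LCDD. Slc7a13, a carrier of the late segment, had 4.15 to 10.5 CPM in LCDD, 1.30 to 37.7 in DH-LMP2A and 0 to 0.865 in WT. Sex composition and genotype cannot be told apart for these genes in this design.

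Against WT, 0 of 47 members were called in LCDD, against 1.84% of all genes tested. At an unadjusted p under 0.05 there were 3, Cyp2e1 (log2 fold change 3.43 ± 0.86, SE), Kap (2.82 ± 0.75) and Cyp27b1 (1.45 ± 0.57), with edgeR adjusted p of 0.0683, 0.0860 and 0.291. DESeq2 called 2, Cyp2e1 and Kap, both higher, against 1.54% of the 28088 genes with any count. These 2 were also the members whose LCDD libraries all lay above all WT libraries, 4.26% against 2.97% of all genes tested. In DH-LMP2A the members with no overlap with WT were Cyp2e1, Cyp27b1 and Xpnpep2, 6.38% against 2.64%. Xpnpep2 was not called there (2.92 ± 0.70, adjusted p = 0.0975).

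The size of both comparisons depended on WT replicate 1, though not on it alone. The median log2 fold change of the 47 was 1.12 in DH-LMP2A and 0.38 in LCDD with it, and 2.90 and 2.16 without it, against 0.00 and 0.01 over all genes with all libraries. Without it 24 members were called higher in DH-LMP2A, against 1.91% of all genes tested, and 7 in LCDD, against 1.74%. Within the codes NS161202, NS171018 and NS180319 the median difference from WT was 0.18, 2.25 and 1.48 in DH-LMP2A and -1.04, 0.90 and 1.6 in LCDD. The direction in LCDD was thus not the same under every code.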

How the data were processed

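Glomerular RNA was sequenced as stranded poly(A) libraries with paired reads of 75 bases. Per the submitters' processing notes, the tools were STAR 2.4.0a, featureCounts, Subread 1.5.0-p3 and DESeq2, and the builds mm10 and GRCm38; the strand setting, the treatment of reads that match several places and the annotation release are not given in the sources used here. The authors deposited raw read counts per gene, with each gene's span and exon length, per the file headers. Replicate numbers follow the order of deposition. All 13 count columns were mapped by title. Of the 46958 symbols, 44117 matched GENCODE M21, and 99.85% of those overlapped their annotated span.

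Counts were fitted with edgeR 4.0.16 in R 4.3.3: filterByExpr with a minimum count of 10 by genotype, TMM, all 13 libraries and 1 coefficient per genotype. The filter kept at least 99.93% of each library's counts. Codes were tested by an F test on 3 coefficients with the genotype in the model. SE was taken as the log2 fold change over root F. The script was tested on simulated data. Chi-square per degree of freedom was 12.6 to 233.9 over the 22 same-genotype pairs, far above sampling noise. That replicates are separate mice rests on the labels.

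Deviations from the genotype mean of same-code LCDD and DH-LMP2A libraries correlated across genes in all 4 pairs (0.152 to 0.593, mean 0.421). Pairs of other codes had a mean of -0.139. Deviations from a genotype mean add up to 0, so that value largely mirrors the same-code mean and is no separate evidence. Some pairs of other codes correlated as well. LCDD replicate 2 with DH-LMP2A replicate 1 had 0.524, LCDD 3 with DH-LMP2A 4 had 0.458 and LCDD 4 with DH-LMP2A 3 had 0.419. The correlations thus do not single out the code, and the pairing used for the block rests on the sample titles. The named members are those called between genotypes, the 3 with the smallest p and the 3 with the widest code means, the highest per kb in each of the 12 role groups, Cyp27b1, Cyp24a1 and Hnf4a. Code means were taken over all libraries, without centring on genotype. The members and all gene lists were chosen with earlier results of these data known. Alternatives were DESeq2 1.42.0, RLE factors, other filters, the block, a Y-linked covariate, fits of fewer genotypes and leaving out libraries; the block without single-mouse libraries, the block with the covariate and the code test without WT were added after seeing the data. Some items are not reported here and were left out of the lists and motifs.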

Additional observations from a re-analysis of the deposited data

Results flagged for a closer look

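In each genotype, the highest and the lowest library of every member, and of the median over the members, was compared with its neighbours by Dixon's test at the 95% level. This gave 3 libraries apart in 144 groups of values, where chance flags about 1 in 20 groups, or 7.2. Slc22a2, the cation transporter OCT2, had a log2 CPM of 3.78 in WT replicate 1, against 0.80 to 1.16 in the other WT libraries. Cyp27b1, the enzyme that activates vitamin D, had 1.15 in DH-LMP2A replicate 1, against -0.18 to 0.03 in the others. Xpnpep2, aminopeptidase P, had -1.13 in WT replicate 2, a pool of 3 mice, against 2.02 to 2.76 in the other WT libraries.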

How the results depend on the processing

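Between LCDD and DH-LMP2A 334 genes were called (218 higher, 116 lower), with LCDD against WT 308 (217 and 91), with DH-LMP2A against WT 105 (46 and 59) and between codes 3115. In that order, the genotype counts were 1021, 536 and 562 with the code as replicate block, 823, 742 and 474 with DESeq2, and 153, 116 and 54 for genes averaging 5 CPM or more. With only the 2 genotypes compared, 213 and 185 genes were called in the LCDD comparisons. With the Y-linked covariate 29 and 61 were called against WT, without single-mouse libraries 54 and 69, with the block and without them 53 and 40, and with the block and the covariate 5 and 3 (969 for LCDD against DH-LMP2A). Between codes DESeq2 called 5436, a model with no genotype term 1409, the fit without single-mouse libraries 166 and that of LCDD and DH-LMP2A alone 63. Leaving out 1 library gave 113 to 484, 159 to 441, 29 to 407 and 1502 to 2961 genes.

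Of the members, LCDD against DH-LMP2A called 3 with the block (2.86% of all genes were called lower), also with the covariate added. LCDD against WT called 2 higher with the block (2.05% of all genes) and 2 higher with DESeq2 (1.54%). DH-LMP2A against WT called 4 with DESeq2, 1 among genes averaging 5 CPM or more, and 0 with the 2 genotypes compared, with the covariate, without single-mouse libraries, and with the block and either of these. Except for the fit of the 2 genotypes compared, the paragraph above gives how many of all genes these fits called. Between codes 4 were called without single-mouse libraries (0.959% of all genes) and 6 with LCDD and DH-LMP2A alone (0.387%). Leaving out 1 library gave 0 to 1, 0 to 7, 0 to 24 and 5 to 38 members. Over all genes the same leave-outs gave 113 to 484, 159 to 441, 29 to 407 and 1502 to 2961. The members' median log2 fold change ran over these from -1.12 to -0.28, -0.0070 to 2.16 and 0.63 to 2.90, and against WT it was 2.41 and 3.55 with the covariate and 1.94 and 2.74 with the block added. No called result changed sign, but the median of LCDD against WT was -0.0070 without LCDD replicate 2, against 0.38 with all libraries. The causes of these moves were not tested, and fewer libraries or genes enter some of the fits.

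With WT, same-code libraries did not all deviate together (mean correlations 0.215 with LCDD and 0.298 with DH-LMP2A, lowest -0.164 and -0.158). The lowest were the pairs with WT replicate 5, and the other same-code pairs had 0.128 to 0.400 and 0.160 to 0.568. Some pairs of other codes correlated too, such as LCDD replicate 2 with WT replicate 1 at 0.477. The block against WT thus rests on the sample titles. The block called 3 members higher in DH-LMP2A against WT (1.77% of all genes), Cyp2e1, Kap and Xpnpep2 (edgeR adjusted p 0.0180, 0.0349 and 0.0400). Depth limits Cyp27b1, with 1 to 3 counts in WT replicates 3 and 4.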
